A study of Mus musculus with 12 samples.

Results

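*Acot1*, *Acot2*, *Pdk4*, *Ucp3*, *Angptl4*, *Plin5*, *Fgf21*, *Cpt1a* and *Cidea* are target genes of the nuclear receptor PPARA. These 9 genes were picked by symbol from the 53801 genes measured in whole mouse hearts, by a rule that names no measured value, and 8 of them had enough reads to be tested. *Fgf21* did not pass the filter on low counts.

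The hearts came from adult male C57BL/6N mice, and 12 libraries were sequenced, 1 per heart. Acute myocardial infarction (AMI) was made by tying off the left coronary artery, and the hearts were removed after 1 day (4 hearts, day 1 AMI) or 7 days (4 hearts, day 7 AMI). The other 4 mice had sham surgery, and when their hearts were removed is not given in the sources used here. All mice were wild type, the whole heart was used, so that infarct, border and remote muscle were mixed, and nothing in the labels says that hearts were pooled.

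PPARA is a receptor that fatty acids bind and activate. It pairs with a retinoid X receptor (RXR) on direct repeats of the hexamer AGGTCA and raises the transcription of genes for the uptake, storage and oxidation of fatty acids, together with the coactivator PGC-1α. The heart draws most of its energy from fatty acids, and its PPARA targets are known to rise in fasting and diabetes and to be low in hypertrophied and failing muscle. *Acot1* and *Acot2* encode acyl-CoA thioesterases, which split fatty acyl-CoA into fatty acid and coenzyme A in the cytosol and in the mitochondrion respectively. *Pdk4* encodes a kinase that switches off pyruvate dehydrogenase and so spares glucose. *Ucp3* encodes a carrier of the inner mitochondrial membrane, and *Cpt1a* the liver form of the enzyme that commits fatty acids to mitochondrial import. *Plin5* encodes a coat protein of lipid droplets that touch mitochondria, and *Cidea* a droplet protein best known from brown fat. *Angptl4* and *Fgf21* encode secreted proteins, an inhibitor of lipoprotein lipase and a hormone of fasting.

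*Acot1* and *Acot2* were examined first for shared sequence, since read pairs that lie wholly in stretches that both transcripts hold cannot be told apart. Stretches were compared singly, without regard to the mate of a read. Both lie on the plus strand of chromosome 12 (GRCm38), *Acot2* at chr12:83987861-83993873 and *Acot1* at chr12:84009490-84018371, with 15616 bases between them and *Acot4*, *Acot3*, *Acot5* and *Acot6* behind them. No exon base of either gene is shared by position with another annotated gene (GENCODE M21). The coding sequences, 1260 bases in *Acot1* and 1362 in *Acot2*, aligned without a gap over 1239 bases, of which 1180 (95.2%) were identical. The next closest relative of either gene was *Acot3*, with 83.9% identity to *Acot1* and 83.0% to *Acot2*. Of all stretches of 75 bases in the annotated *Acot2* transcripts, 20.5% also stood in an *Acot1* transcript, and 11.2% of those of *Acot1* stood in *Acot2*. For stretches of 150 bases, the length of a read, 10.2% of those of *Acot2* and 6.92% of those of *Acot1* stood in another gene. Of the other members, 0.599% of the 75-base stretches of *Pdk4* and 0.0657% of those of *Cpt1a* stood in another gene, and none of those of *Ucp3*, *Angptl4*, *Plin5*, *Fgf21* or *Cidea* did.

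The sequences below show how the pair is alike and how it differs. The longest run without a difference is 273 bases long, bases 887 to 1159 of the *Acot1* coding sequence and 1010 to 1282 of that of *Acot2*. It is shown because a read inside it, taken without its mate, fits both genes.
Acot1 and Acot2: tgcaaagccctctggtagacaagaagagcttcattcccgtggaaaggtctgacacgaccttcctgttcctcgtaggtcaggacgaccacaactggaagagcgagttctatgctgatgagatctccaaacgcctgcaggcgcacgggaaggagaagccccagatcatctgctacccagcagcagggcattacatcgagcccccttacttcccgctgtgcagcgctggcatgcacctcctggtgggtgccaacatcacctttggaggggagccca
The 120 bases just before it, bases 767 to 886 of *Acot1* and 890 to 1009 of *Acot2*, hold 14 differences, the most of any window of that length, and are shown because reads there tell the genes apart. Capitals mark the bases that differ.
Acot1: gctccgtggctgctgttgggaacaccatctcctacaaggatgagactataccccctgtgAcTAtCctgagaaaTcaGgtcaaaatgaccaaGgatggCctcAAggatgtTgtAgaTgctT
Acot2: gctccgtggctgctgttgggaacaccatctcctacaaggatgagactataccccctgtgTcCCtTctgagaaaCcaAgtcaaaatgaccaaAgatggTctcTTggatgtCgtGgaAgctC
The coding sequence of *Acot2* starts with 123 bases that have no partner in *Acot1*, which begins to align at base 124. They are shown because they encode the start of the mitochondrial form.
Acot2: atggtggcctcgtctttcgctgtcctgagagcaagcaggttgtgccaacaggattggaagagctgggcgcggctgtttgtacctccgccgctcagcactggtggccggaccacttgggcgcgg

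The promoters were searched because the members share a receptor. RefSeq windows from 250 bases before to 50 bases after a start site (GRCm38.p6) were at hand for 7 of the 9 members, 8 windows in all, since *Plin5* has more than 1 start site. The repeat that PPARA and RXR prefer, searched on both strands as AGGTCANAGGTCA, stood in none of these windows and in 0.0396% of all 32851 windows. The looser form AGGNCANAGGNCA, which takes in the first, also stood in none, against 0.381% of all windows. The hexamer AGGTCA alone, which is a part of the first repeat and can be a part of the second, stood in 4 of the 8 windows, those of *Ucp3* and *Cpt1a* and both of *Plin5*, against 16.3% of all windows. The second *Plin5* window (chr17:56117249-56117548) holds it 13 bases downstream of its start site and is not printed. The other windows are printed below with the hexamer, or its reverse complement, in capitals, *Ucp3* and *Plin5* as genes that were lower after AMI and *Cpt1a* as one that was not lower on day 7. *Ucp3* holds the hexamer 149 and 44 bases upstream of its start site (chr7:100472741-100473040, plus strand), *Plin5* 170 bases upstream (chr17:56117499-56117798, minus strand), and *Cpt1a*, on the opposite strand, 94 bases upstream (chr19:3323051-3323350, plus strand).
Ucp3: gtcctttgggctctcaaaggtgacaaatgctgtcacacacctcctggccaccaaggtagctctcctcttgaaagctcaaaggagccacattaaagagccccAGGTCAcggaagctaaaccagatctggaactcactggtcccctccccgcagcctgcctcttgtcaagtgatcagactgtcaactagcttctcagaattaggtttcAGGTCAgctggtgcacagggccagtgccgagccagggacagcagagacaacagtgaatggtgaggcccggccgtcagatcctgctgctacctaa
Plin5: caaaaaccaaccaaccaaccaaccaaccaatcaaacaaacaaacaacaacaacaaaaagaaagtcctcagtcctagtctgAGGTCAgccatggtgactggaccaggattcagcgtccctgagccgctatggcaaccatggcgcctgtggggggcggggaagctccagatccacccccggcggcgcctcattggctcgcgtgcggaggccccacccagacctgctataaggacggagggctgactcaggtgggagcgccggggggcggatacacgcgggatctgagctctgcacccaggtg
Cpt1a: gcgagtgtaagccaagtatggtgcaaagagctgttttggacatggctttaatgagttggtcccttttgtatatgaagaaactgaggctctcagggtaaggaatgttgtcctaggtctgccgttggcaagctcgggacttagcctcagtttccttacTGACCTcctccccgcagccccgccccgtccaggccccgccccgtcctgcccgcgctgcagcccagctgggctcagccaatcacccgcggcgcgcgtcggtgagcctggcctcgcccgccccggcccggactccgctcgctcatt
A match is a description of letters, and sites outside these windows were not searched.

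Depth ran from 23204551 to 32166517 counts per library, and levels are given as CPM, read counts scaled to a common library size, with TMM factors that offset a few very abundant transcripts. These factors differed by group, from 0.781 to 0.917 in sham hearts and from 1.01 to 1.17 after AMI. Transcripts of the mitochondrial genome held 17.9% to 27.4% of counts in sham hearts and 12.1% to 19.2% after AMI. A gene was called differentially expressed (DEG) where it differed at least 2 times (fold change, FC) at a false discovery rate (FDR) under 0.05 in edgeR's quasi-likelihood test over 15306 genes, and every adjusted p below is from that fit unless another is named. Summed markers of cardiomyocytes (11 genes) fell from 74159 to 88176 CPM in sham hearts to 43979 to 56741 in day 1 AMI and 38467 to 46900 in day 7 AMI, with no overlap between sham and either AMI group. Leukocyte markers (10 genes) ran from 137 to 200 CPM in sham hearts and from 386 to 651 after AMI, and fibroblast markers (8 genes) from 1093 to 1335 in sham hearts and from 8207 to 16464 on day 7. Adipocyte markers (10 genes) summed to between 2.87 and 19.9 CPM, skeletal muscle markers to between 2.53 and 8.46, and albumin had 0 counts in all 12 hearts. In whole hearts, fewer cells of a type and less RNA per cell cannot be told apart.

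Compared with sham, 3 of the 8 tested members were DEGs with lower levels on day 1 (*Acot1*, *Pdk4* and *Ucp3*) and 0 were DEGs with higher levels, against 2.98% of all genes lower and 7.79% higher. On day 7, 5 of 8 were lower (*Acot1*, *Acot2*, *Pdk4*, *Ucp3* and *Plin5*) and 0 higher, against 5.88% and 15.3%. Between day 1 and day 7, *Acot1* and *Angptl4* were DEGs with lower levels on day 7 and 0 members were higher, against 2.69% and 8.55%. At FDR below 0.05 without a minimum FC, 6, 6 and 5 of the 8 members were lower in the 3 comparisons, against 19.9%, 28.4% and 22.8% of all genes. The count of members higher was 0 in each, against 22%, 30.9% and 24.2%, also at an unadjusted p below 0.05 in edgeR, and DESeq2 called 0 members higher at the limits for a DEG. Every heart of one group lay below every heart of the other for 4, 5 and 4 members, against 17.1%, 24.7% and 20.9% of all genes, and above for 0 members, against 19.6%, 28.3% and 23.5%. The 3 comparisons share hearts. The median log2 FC of the members was -0.93 on day 1 and -1.73 on day 7 against sham, beside -0.01 and 0.03 over all genes tested.

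**Figure D1:**
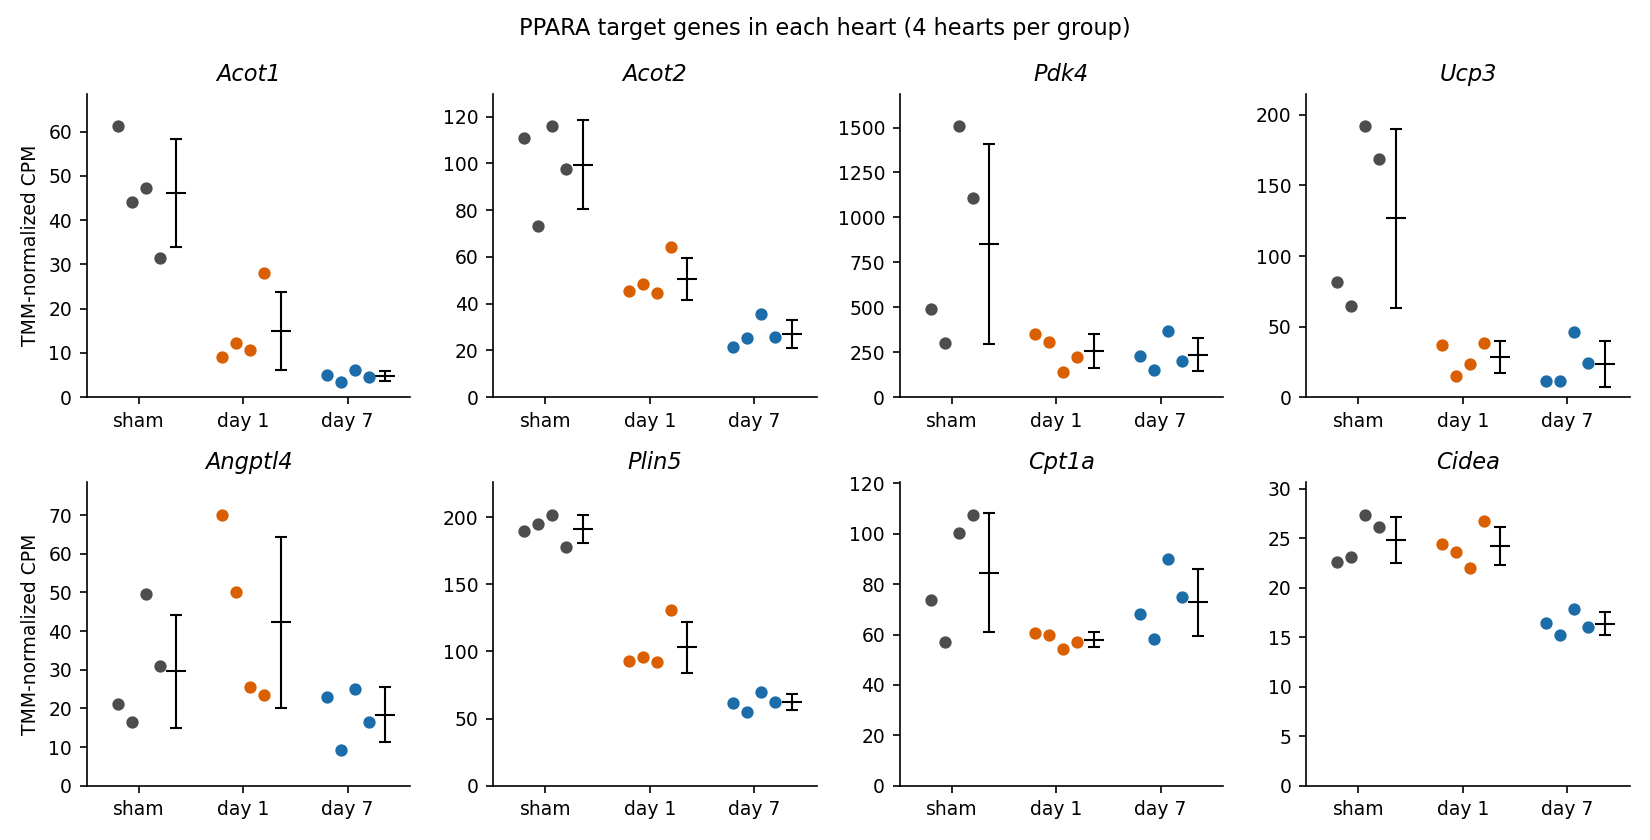
Level of each tested member in each heart, in TMM-normalized CPM on axes that start at 0, with points for hearts in the order of their replicate numbers and bars for the mean ± SD of 4 hearts. All day 7 hearts lie below all sham hearts for *Acot1*, *Acot2*, *Ucp3*, *Plin5* and *Cidea*, and the groups overlap for *Pdk4*, *Angptl4* and *Cpt1a*.

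Among the thioesterases, *Acot1* had the largest fall of the members on day 7. Its level in sham hearts 1 to 4 was 61.2, 44.2, 47.3 and 31.5 CPM, in day 1 AMI hearts 9.02, 12.2, 10.6 and 28.0, and in day 7 AMI hearts 4.96, 3.48, 6.12 and 4.49. No groups overlapped, and day 1 heart 4 stood close to the lowest sham heart while the other 3 day 1 hearts were at 12.2 CPM or less. *Acot1* fell 3.07-fold on day 1 (log2 FC -1.62 ± 0.306 SE, adjusted p = 0.000951) and 9.64-fold on day 7 (-3.27 ± 0.335, adjusted p = 1.96e-06), and was 3.14-fold lower on day 7 than on day 1 (adjusted p = 0.000947). On log2(TPM + 1), limma gave -1.42 on day 1 and -2.18 on day 7, both DEGs, and -0.76 between day 7 and day 1, which was not (adjusted p = 0.0759). On that scale the median of all genes was 0.23, 0.44 and 0.18 in the 3 comparisons.

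*Acot2* was at 111, 73.3, 116 and 97.7 CPM in sham hearts, at 45.4, 48.3, 44.4 and 64.0 on day 1, and at 21.4, 25.3, 35.5 and 25.8 on day 7. The 3 groups did not overlap, and day 1 heart 4 was again the highest of its group. The fall on day 1 was 1.97-fold (log2 FC -0.98 ± 0.171, adjusted p = 0.000548), just short of the FC for a DEG, and on day 7 it was 3.69-fold (-1.88 ± 0.176, adjusted p = 8.87e-07). From day 1 to day 7 it fell by 0.91 on the log2 scale (adjusted p = 0.000713), also short of a DEG. Without sham heart 2 or day 1 heart 4 the log2 FC on day 1 was -1.10 or -1.11, past the FC for a DEG, and without day 7 heart 3 that from day 1 to day 7 was -1.07, also past it.

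The pair was also counted as a single feature. Its summed counts fell by 1.15 on day 1 and fell by 2.20 on day 7 on the log2 scale, with adjusted p of 0.000324 and 5.25e-07, a value that does not depend on how reads were split between them. The share of *Acot1* in the counts of the pair was 31.6% ± 6.07 (SD, n = 4) in sham hearts, 21.6% ± 6.06 on day 1 and 15.1% ± 2.79 on day 7. All 4 day 7 shares, from 12.1% to 18.9%, lay below the sham shares, from 24.4% to 37.6%. The log2 ratio of *Acot1* to *Acot2* counts was lower on day 7 than in sham hearts by a difference of -1.38, with an exact two-sided permutation p of 0.0286, the smallest that 4 hearts against 4 can give, and 0.0858 adjusted over the 6 ratio tests made. On day 1 the difference was -0.76 (exact permutation p = 0.0857).

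In TPM, which RSEM computes by dividing reads between transcripts that share them, the share of *Acot1* was 34.8% ± 9.74, 22.6% ± 5.41 and 20.2% ± 1.47 in the 3 groups, and the log2 ratio differed by -1.05 between day 7 and sham (exact permutation p = 0.0286, adjusted 0.0858). Between day 7 and day 1 the ratio differed by -0.61 in counts and by -0.18 in TPM (exact permutation p = 0.0571 and 0.629). The 2 units did not follow each other closely for *Acot1*. Counts per TPM varied 2.05-fold across the 12 libraries for *Acot1*, more than for all but 2.24% of genes, and 1.13-fold for *Acot2*.

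**Figure D2:**
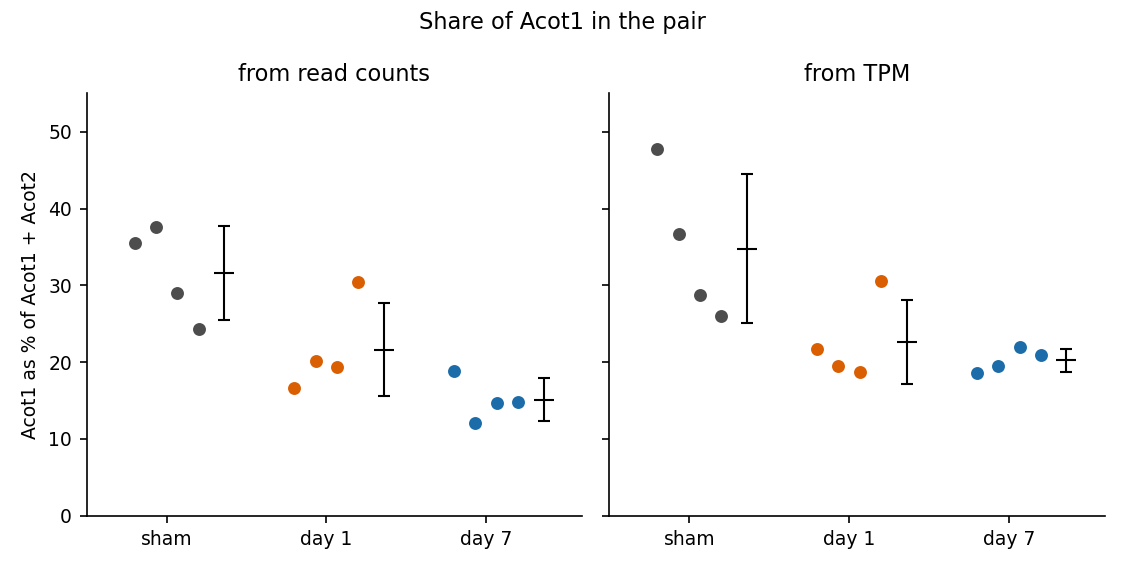
*Acot1* as a percentage of *Acot1* plus *Acot2* in each heart, from read counts (left) and from TPM (right), with the mean ± SD of 4 hearts. Day 7 shares lie below all sham shares in both panels, and day 1 heart 4 stands at 30.4% in counts and 30.5% in TPM.

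Of the other genes of the acyl-CoA thioesterase cluster, *Acot3* was low, at 2.29 CPM in sham hearts, and fell to 0.489 on day 1 (log2 FC -2.19, adjusted p = 0.000368) and 0.485 on day 7 (-2.22, adjusted p = 0.000123). Of the exon bases of *Acot3*, 11.5% are shared by position with another gene on the same strand. *Acot4* had log2 FCs of -0.54 on day 1 and -0.88 on day 7 (adjusted p = 0.0659 and 0.00406). *Acot6* had -0.34 and -0.36 (adjusted p = 0.139 and 0.0892), and neither gene was a DEG. *Acot5* had at most 1 count in any heart. *Acot9*, a mitochondrial thioesterase encoded elsewhere, rose on day 1 (log2 FC 0.97, adjusted p = 4.04e-05), short of a DEG.

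*Pdk4* was the most abundant member by TPM in each group, with 448 ± 335 in sham hearts, 196 ± 50.8 on day 1 and 188 ± 71.8 on day 7 (SD, n = 4). In CPM the sham hearts differed from each other by 5.0-fold, at 490.0, 302, 1508 and 1109.9, the day 1 hearts were at 351, 308, 141 and 223, and the day 7 hearts at 227, 150.1, 365 and 204. Sham hearts 3 and 4 stood above all others, whereas sham heart 2 lay within the range of both AMI groups. The log2 FC was -1.74 ± 0.437 on day 1 (adjusted p = 0.00592) and -1.85 ± 0.439 on day 7 (adjusted p = 0.00224). Without sham heart 3 these were -1.31 (adjusted p = 0.0228) and -1.42 (adjusted p = 0.00899), still DEGs. On log2(TPM + 1), limma gave -0.89 (adjusted p = 0.141) and -0.99 (adjusted p = 0.0752), and *Pdk4* was no DEG. The median of all genes on that scale was 0.23 and 0.44. Its counts per TPM varied 1.87-fold across libraries, more than for all but 3.68% of genes. Day 7 against day 1 gave -0.11 ± 0.425 (adjusted p = 0.851).

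The SD of log2 *Pdk4* over the sham hearts was 1.07, and 1.97% of tested genes had a larger one. Sham heart 2, the lowest for *Pdk4*, also had 4450 CPM of erythroid markers (5 genes), against a median of 877 over the sham hearts, and whether these are linked was not tested. Other kinases of pyruvate dehydrogenase moved in both directions. *Pdk2*, itself a PPARA target, fell on day 7 (log2 FC -1.40, adjusted p = 3.76e-07), and *Pdk3*, a low gene at 2.11 CPM in sham hearts, rose on day 1 (1.01, adjusted p = 0.00171) and day 7 (1.54, adjusted p = 2.26e-05). Of the enzyme they act on, *Pdha1*, the E1α subunit, fell by 1.02 on day 7 (adjusted p = 1.24e-06), and *Pdp2*, a phosphatase that switches the enzyme back on, fell by 1.64 (adjusted p = 4.29e-06). *Pdhb*, *Dlat* and *Pdhx*, of the same complex, had -0.76, -0.87 and -0.70 on day 7 (adjusted p = 6.67e-05, 3.22e-06 and 2.15e-05), short of a DEG. The other phosphatase, *Pdp1*, at 21.2 TPM in sham hearts against 11.7 for *Pdp2*, had -0.34 on day 7 (adjusted p = 0.0240), also short of a DEG.

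*Ucp3* was at 81.3, 64.5, 192 and 169 CPM in sham hearts, at 36.7, 14.8, 23.5 and 38.2 on day 1, and at 11.8, 11.7, 46.5 and 24.1 on day 7. Every AMI heart lay below every sham heart, and the AMI groups overlapped. It fell 4.48-fold on day 1 (log2 FC -2.16 ± 0.465, adjusted p = 0.00222) and 5.39-fold on day 7 (-2.43 ± 0.471, adjusted p = 0.000480). It was a DEG on both days under each scaling and tool that was tried. Day 7 against day 1 gave -0.27 ± 0.456 (adjusted p = 0.658). *Ucp2*, the relative found in immune and other cells, rose on day 7 from 82.3 to 121 CPM (log2 FC 0.55, adjusted p = 0.00461), short of a DEG.

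*Plin5* varied little between sham hearts. Sham hearts were at 189.7, 195, 202 and 178 CPM, day 1 hearts at 93.0, 95.9, 92.2 and 131, and day 7 hearts at 61.9, 55.1, 69.5 and 62.6. The 3 groups did not overlap, and day 1 heart 4 stood apart from the other 3. *Plin5* fell 1.86-fold on day 1 (log2 FC -0.89 ± 0.112, adjusted p = 6.59e-05), short of a DEG except without day 1 heart 4 (-1.03), and 3.07-fold on day 7 (-1.62 ± 0.114, adjusted p = 9.18e-08). From day 1 to day 7 it fell by 0.73 (adjusted p = 0.000150). The SD of log2 *Plin5* in sham hearts was 0.0786, and 90.5% of tested genes had a larger one.

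Other droplet coat genes and the lipases at the droplet were compared with it. *Plin4* fell by 1.53 on day 7 (adjusted p = 1.05e-06) and *Plin3* by 1.13 (adjusted p = 1.70e-06), and *Plin2*, the coat protein of most tissues, had a log2 FC of 0.28 on day 1 (adjusted p = 0.0897) and -0.12 on day 7 (adjusted p = 0.454). *Pnpla2*, the triglyceride lipase that PLIN5 holds back, fell by 1.47 on day 7 (adjusted p = 1.11e-06), and *Lipe*, hormone-sensitive lipase, by 1.21 (adjusted p = 2.66e-06). *Abhd5*, the activator of *Pnpla2*, fell by 0.43 (adjusted p = 0.00108), short of a DEG.

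*Cidea* was lower in CPM on day 7 than in either other group. Sham hearts were at 22.6, 23.1, 27.4 and 26.1 CPM, day 1 hearts at 24.5, 23.6, 22.0 and 26.7, and day 7 hearts at 16.5, 15.2, 17.9 and 16.02. Each day 7 heart lay below all other hearts. The log2 FC was -0.03 ± 0.0910 on day 1 (adjusted p = 0.785) and -0.60 ± 0.0921 on day 7 (adjusted p = 6.97e-05), and -0.56 from day 1 to day 7 (adjusted p = 0.000215), none of them a DEG. In TPM the day 7 hearts, from 26.55 to 30.48, lay within the sham range of 25.22 to 34.56, and limma on log2(TPM + 1) gave -0.04 for day 7 against sham (adjusted p = 0.715). On that scale the median log2 FC of all genes was 0.44, so *Cidea* lay below it there too. In brown fat *Cidea* stands beside *Ucp1*, which had at most 24 counts in any heart, and *Adipoq*, the adipocyte hormone, had at most 34. *Cidec*, its white-fat relative, had a mean of 0.772 CPM in sham hearts and was no DEG (log2 FC -0.60 on day 1 and -0.48 on day 7, adjusted p = 0.426 and 0.493).

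*Cpt1a* differed little between groups. Sham hearts were at 73.5, 57.0, 100.1 and 108 CPM, day 1 hearts at 60.6, 59.9, 54.4 and 57.0, and day 7 hearts at 68.1, 58.3, 90.0 and 75. All groups overlapped, and the day 1 hearts lay in a narrow band near the lowest sham heart. It fell by 0.54 ± 0.172 on day 1 (log2 FC, adjusted p = 0.0205), and day 7 gave -0.22 ± 0.171 (adjusted p = 0.295). The muscle form, *Cpt1b*, was far more abundant, at 346 ± 22.7 TPM in sham hearts against 22.6 ± 6.24 for *Cpt1a*. *Cpt1b* fell by 0.68 on day 1 (adjusted p = 0.000166) and by 1.07 on day 7 (adjusted p = 9.36e-07), a DEG, and the brain form, *Cpt1c*, rose from 3.62 to 12.0 CPM on day 7 (log2 FC 1.73, adjusted p = 2.00e-06). Of the genes for malonyl-CoA, which inhibits these enzymes, *Mlycd*, which breaks it down, fell by 1.06 on day 1 and 1.62 on day 7, and *Acacb*, which makes it, by 0.69 and 1.21 (adjusted p = 0.000180, 1.39e-06, 0.00219 and 9.99e-06). *Acaca*, which also makes malonyl-CoA, had log2 FCs of 0.10 and 0.11 (adjusted p = 0.495 and 0.394).

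*Angptl4* was not called against sham on either day and was lower on day 7 than on day 1. Sham hearts were at 21.2, 16.4, 49.5 and 31.1 CPM, day 1 hearts at 70.1, 50.01, 25.5 and 23.6, and day 7 hearts at 22.8, 9.16, 24.9 and 16.5. The groups overlapped in all 3 comparisons, and only day 1 hearts 1 and 2 lay above the sham range. Day 1 against sham gave a log2 FC of 0.52 ± 0.396 (adjusted p = 0.314) and day 7 against sham -0.68 ± 0.402 (adjusted p = 0.159). Day 7 against day 1 gave -1.20 ± 0.401 (adjusted p = 0.0240), a DEG. It was no DEG without day 1 heart 1 (-0.85, adjusted p = 0.0965), day 1 heart 2 (-1.11, 0.0515), day 7 heart 2 (-0.98, 0.0698) or day 7 heart 4 (-1.15, 0.0570), and no DEG in limma on log2(TPM + 1) (-0.88, 0.0892).

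The enzyme that *Angptl4* inhibits is lipoprotein lipase, *Lpl*, which fell by 0.83 on day 1 (adjusted p = 0.000522) and by 1.26 on day 7 (adjusted p = 5.37e-06). *Gpihbp1*, which carries it to the capillary wall, fell by 0.49 on day 1 (adjusted p = 0.0122) and had a log2 FC of -0.20 on day 7 (adjusted p = 0.238).

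*Fgf21* was close to absent. Its counts were 1, 0, 0 and 0 in sham hearts, 3, 2, 0 and 1 on day 1, and 7, 4, 1 and 3 on day 7, while 3 counts are the floor taken for a library. Only day 1 heart 1 and day 7 hearts 1, 2 and 4 reached that floor. Over the group, 15 counts on day 7 against 1 in sham hearts gave a ratio of 14.6 at equal depth, with an exact 95% interval of 2.25 to 616 that covers counting error only, and day 1 against sham gave 5.05 (0.613 to 232). In a fit without the filter on low counts, edgeR's adjusted p was 0.0548 for day 7 and 0.409 for day 1 against sham. Its coreceptor *Klb* had at most 7 counts in any heart. Of the FGF receptors, *Fgfr1* rose by 0.91 on day 7 on the log2 scale (adjusted p = 2.72e-06), short of a DEG, and the low gene *Fgfr2* rose from 0.878 to 3.70 CPM (log2 FC 2.07, adjusted p = 0.000109).

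By TPM, which allows for transcript length, the order of the members in sham hearts was *Pdk4*, *Plin5*, *Ucp3*, *Acot2*, *Acot1*, *Cidea*, *Cpt1a*, *Angptl4* and *Fgf21*. The ranges of *Pdk4* and *Plin5* overlapped neither each other nor that of the gene below, and each neighbouring pair from *Ucp3* down to *Angptl4* overlapped. On day 7 *Pdk4* and *Plin5* were still first and second, *Cidea* and *Cpt1a* followed at 29.1 ± 1.73 and 28.7 ± 4.95 TPM, and *Acot1*, at 5.71 ± 1.66 TPM, lay below all but *Fgf21* with no overlap with *Angptl4* above it.

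Hearts of one group differed from each other in several members at once. Sham heart 3 was the highest of its group for 6 of the 8 tested members and among the top 2 for all 8, and sham heart 2 was the lowest for 5. Day 7 heart 3 was the highest of its group for all 8, and day 7 heart 2 the lowest for 7. Day 7 heart 3 also had the most cardiomyocyte marker RNA of its group, 46900 CPM, and the least fibroblast marker RNA, 8207 CPM, and day 7 heart 2 the least cardiomyocyte marker RNA, 38467 CPM. Day 1 heart 4, highest for 5 members, had the most cardiomyocyte marker RNA of its group, 56741 CPM, and the most fibroblast marker RNA, 2370 CPM. Sham heart 2, the lowest for 5 members, had the least cardiomyocyte marker RNA of its group, 74159 CPM. Sham heart 4 had the most, 88176 CPM, and was among the top 2 for 5 members but the lowest for *Acot1* and *Plin5*. Other hearts went the other way. Day 1 heart 2 had the least cardiomyocyte marker RNA of its group, 43979 CPM, and was among the top 2 for 6 members. Sham heart 3, the highest for 6 members, had less cardiomyocyte marker RNA than sham hearts 1 and 4. The part of these markers in the members' levels was not tested across hearts.

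**Figure D3:**
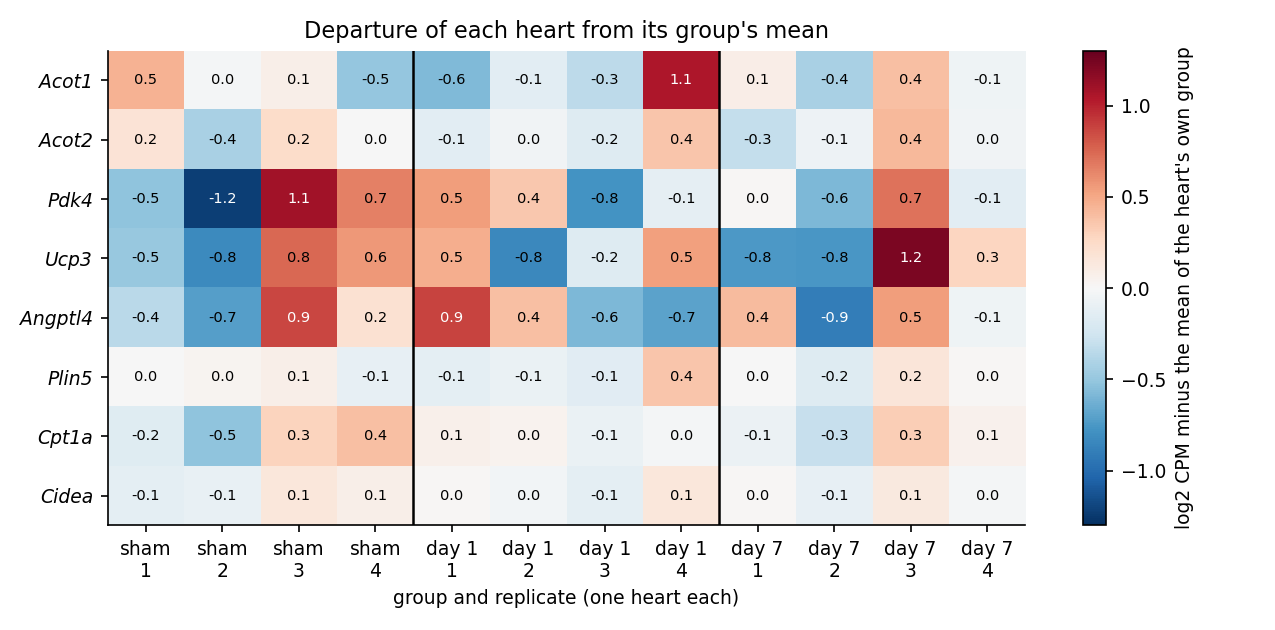
Difference of each heart from the mean of its own group, in log2 CPM, for the 8 tested members, with red above and blue below the group mean. The column of day 7 heart 3 is above its mean in every row, and *Pdk4*, *Ucp3* and *Angptl4* vary most.

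The fall of the members was set beside that of the 11 cardiomyocyte markers by scaling each library to their summed counts. *Myh6* had the largest part of this sum, at 36099 CPM in sham hearts, with log2 FCs of -0.87 and -1.20 on the 2 days. Over the 11 markers, the log2 FC on day 7 ran from -1.37 to -0.26. That scaling moved the median log2 FC of all genes to 0.68 on day 1 and 1.04 on day 7, with 0.516% and 0.444% of all genes as DEGs with lower levels and 25.7% and 51.7% with higher. Of the members, *Ucp3* remained a DEG with lower levels on day 1 (log2 FC -1.48, adjusted p = 0.00296), and *Acot1* (-2.28, adjusted p = 3.46e-06) and *Ucp3* (-1.44, adjusted p = 0.00277) on day 7. *Acot1* on day 1 (-0.95, adjusted p = 0.00586) and *Acot2* (-0.87, adjusted p = 5.06e-05) and *Plin5* (-0.62, adjusted p = 0.000200) on day 7 fell by less than the FC for a DEG, and *Pdk4* on day 7 did not pass (-0.84, adjusted p = 0.0573). *Angptl4* was at 1.25 ± 0.380 on day 1 (adjusted p = 0.00767), which is 0.57 relative to the median of all genes, beside 0.52 with TMM. *Cpt1a* and *Cidea* were at 0.80 and 0.41 on day 7, which is -0.24 and -0.63 relative to that median, beside -0.22 and -0.60 with TMM.

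**Figure D4:**
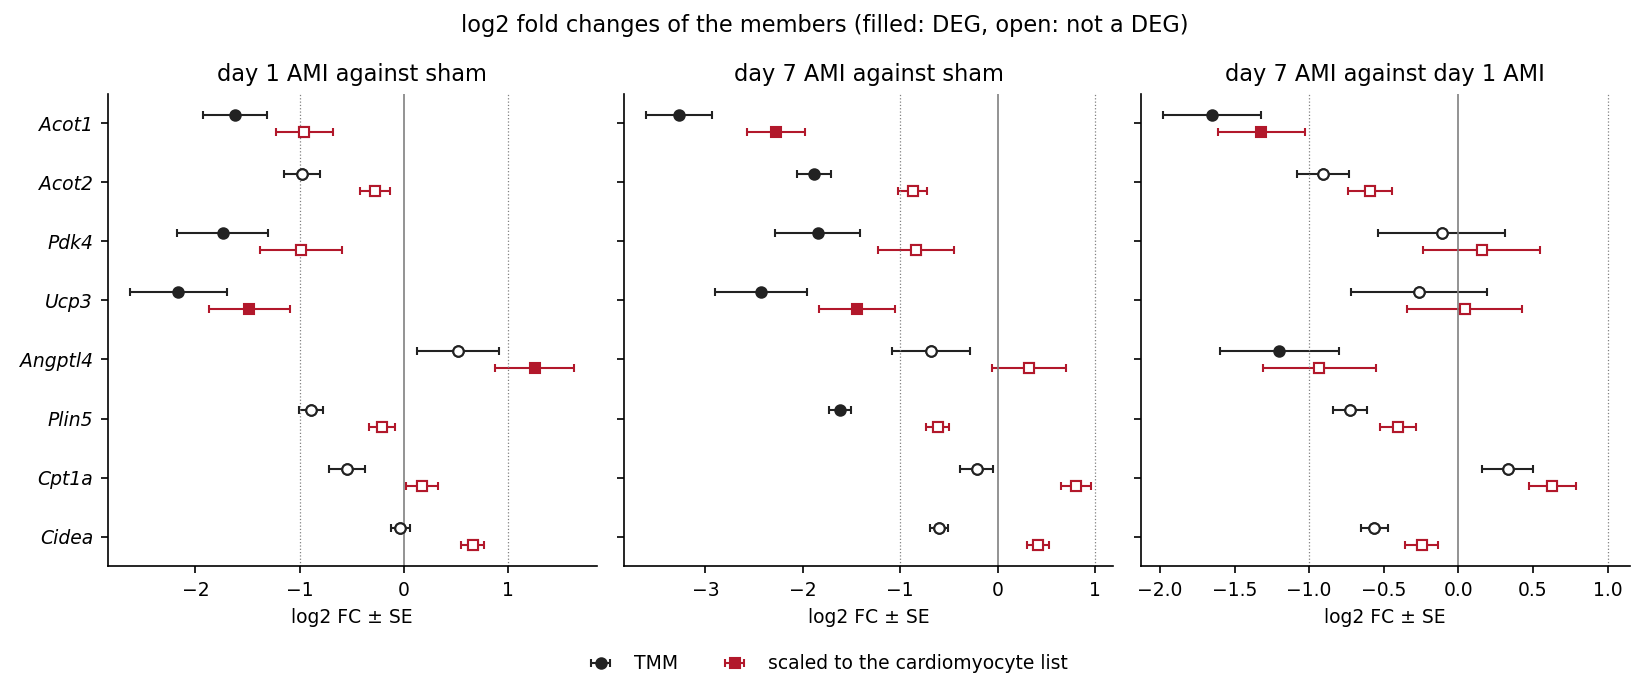
log2 FC ± SE of each tested member in the 3 comparisons, with TMM normalization (black circles) and scaled to the cardiomyocyte markers (red squares), where filled symbols are DEGs, open symbols are not, and dotted lines mark an FC of 2. For day 7 against sham, *Acot1*, *Acot2*, *Pdk4*, *Ucp3* and *Plin5* stay left of 0 in both scalings, of which *Acot1* and *Ucp3* are DEGs in both. *Angptl4*, *Cpt1a* and *Cidea* cross 0.

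A hand-written list of 39 other PPARA targets, mostly enzymes and carriers of fatty acid oxidation, was measured beside the members, and 34 of them were tested. On day 1, 6 were DEGs with lower levels and 0 with higher, against 2.98% and 7.79% of all genes, with a median log2 FC of -0.62. On day 7, 28 were lower and 0 higher, against 5.88% and 15.3% of all genes, with a median of -1.33. At an unadjusted p below 0.05 in edgeR, 2 and 1 of them were higher on the 2 days, and DESeq2 called 0 and 1 higher at the limits for a DEG. The lowest on day 1 were *Ehhadh*, a peroxisomal oxidation enzyme (-1.50), *Aqp7*, a glycerol channel (-1.40), and *Retsat*, retinol saturase (-1.35), and the highest was *Gpd1*, glycerol-3-phosphate dehydrogenase (0.56). The lowest on day 7 were *Ech1*, an enoyl-CoA isomerase (-1.86), and *Retsat* (-1.83), and the highest was *Ucp2*. The fall in *Acot1* on day 7 was larger than that of any of these 34 genes. The cardiomyocyte markers had medians of -0.53 and -1.05 on the 2 days, with 0 and 6 of 11 as DEGs with lower levels in edgeR (10 and 10 at an unadjusted p below 0.05), and under the cardiomyocyte scaling 0 of the 34 targets were DEGs with lower levels on either day, where 0.516% and 0.444% of all genes were.

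**Figure D5:**
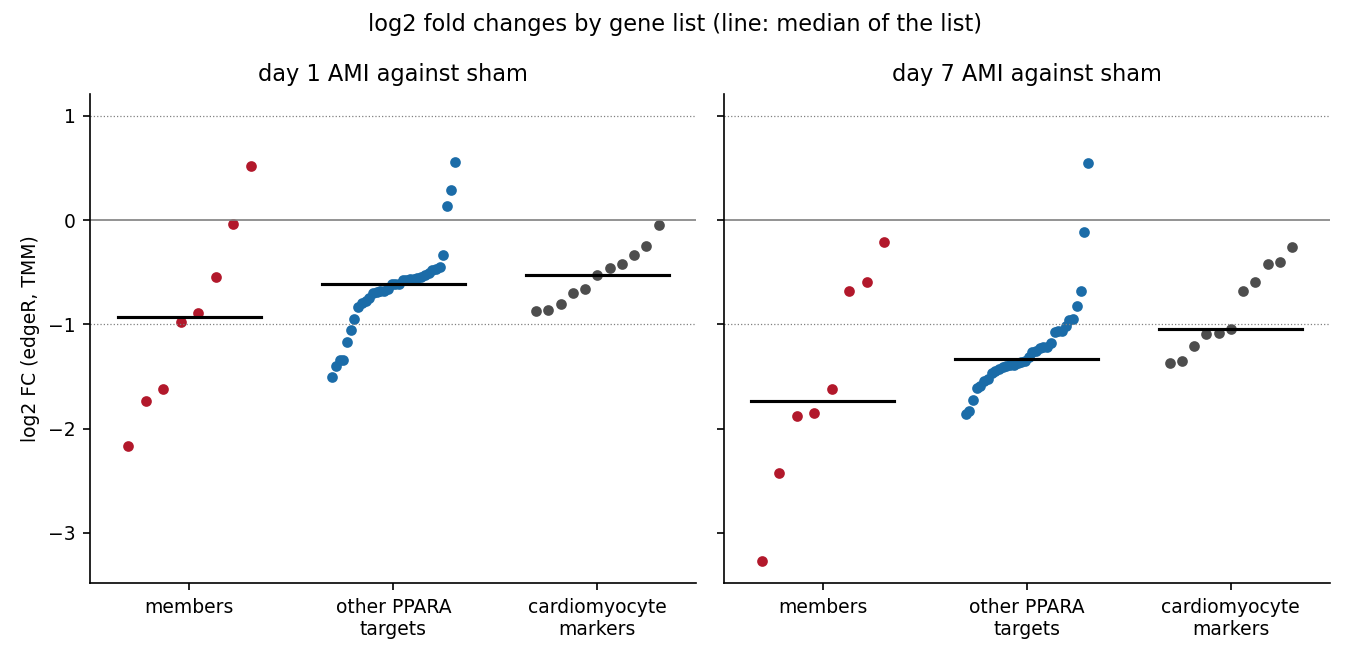
log2 FC of single genes against sham on day 1 (left) and day 7 (right) for the 8 tested members, the 34 other PPARA targets tested and the 11 cardiomyocyte markers, with lines for medians and dotted lines for an FC of 2. The members spread over the widest range, from -3.27 to -0.22 on day 7, and the other targets lie mostly between -1 and -2.

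The receptor itself was lower in CPM. *Ppara* was at 34.1 CPM in sham hearts, 23.5 on day 1 (log2 FC -0.54, adjusted p = 0.0318) and 17.6 on day 7 (-0.95, adjusted p = 0.000572), short of a DEG on both days. In TPM it was at 14.67 ± 5.93, 13.99 ± 0.832 and 12.97 ± 2.29 in the 3 groups, differences within the spread of the sham hearts. On log2(TPM + 1) the median log2 FC of all genes was 0.23 on day 1 and 0.44 on day 7. *Rxrg*, which encodes an RXR, fell by 0.90 on day 1 (adjusted p = 0.000168) and by 1.14 on day 7 (adjusted p = 6.30e-06), and was the 1 DEG on day 7 among 12 receptors and cofactors, of which 0 were DEGs on day 1 in edgeR (7 lower and 1 higher at an unadjusted p below 0.05). *Rxra*, at 98.9 CPM in sham hearts against 73.6 for *Rxrg*, had -0.43 and -0.61 on the 2 days (adjusted p = 0.00305 and 0.000101). *Rxrb* had -0.18 and -0.49 (adjusted p = 0.214 and 0.00197). *Ppargc1a*, which encodes PGC-1α, fell by 0.60 (adjusted p = 0.00204) and 0.86 (adjusted p = 5.03e-05), and was at 26.06 ± 2.603, 21.65 ± 2.398 and 21.25 ± 2.507 TPM. *Ppard*, a related receptor that shares targets with PPARA, had log2 FCs of 0.12 and -0.09 (adjusted p = 0.291 and 0.417). The median of the 12 was -0.38 on day 1 and -0.46 on day 7. Of all genes, 2.98% and 5.88% were DEGs with lower levels on the 2 days.

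Some genes followed a member closely over the 12 hearts. Likeness was measured as the root mean square difference of log2 CPM after the sham mean was taken from each, over 13434 genes. It is not scaled to spread, so a member that varies more between hearts tends to lie further from other genes. The gene nearest to *Acot2* was *Pfkfb1* (0.188), that nearest to *Plin5* was *Gcdh* (0.144), that nearest to *Cpt1a* was *Ackr3* (0.138) and that nearest to *Cidea* was *Tomm5* (0.0732). For *Acot1*, *Pdk4*, *Ucp3* and *Angptl4* the nearest genes lay further off, *Ces1d* (0.554), *Slc25a34* (0.526), *Klhl33* (0.555) and *Sco2* (0.501). Whether this reflects more than their spread was not tested. Among the members, *Acot2* and *Plin5* were the most alike, at 0.249.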

How the data were processed

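RNA from 12 whole mouse hearts was sequenced, and libraries were assigned to groups by their labels. Random-hexamer cDNA was sequenced by the authors as paired 150-bp reads. The authors deposited raw read counts per gene, without normalization, and TPM from RSEM, both for 53801 genes of GRCm38. The submitters' processing notes name CASAVA 1.8, STAR 2.4.0j and RSEM. The tool behind the counts, the strand counted and the treatment of reads that fit several genes are not given in the sources used here. Hence reads shared by *Acot1* and *Acot2* could have been dropped or given to either.

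Counts were tested with edgeR 4.0.16 (R 4.3.3; TMM, filterByExpr by group, quasi-likelihood F test on 1 fit of 3 groups), with Benjamini-Hochberg adjustment over 15306 genes. SEs are those implied by the F statistic. Genes on 2 identifiers (124 symbols) were followed by the identifier with the most counts. The study called DEGs at the same FC and FDR. In simulated data for day 1 against sham, 200 genes were changed and all others were not, unlike in these data, where many genes differed. At FDR below 0.05 without an FC minimum, edgeR recovered 192 of 200 in the right direction. By the stricter rule for a DEG, 2 of the unchanged genes were called (15131 genes). Alternatives were RLE factors, library totals, scaling to cardiomyocyte markers, no filter, DESeq2 1.42.0, limma 3.58.1 on log2(TPM + 1) and log2(TPM + 0.1), 2-group fits, a replicate block, no FC minimum, *Acot1* and *Acot2* summed, and each heart left out.

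The members, lists and tests were chosen with earlier results of these data known. The members were named whatever their values. Genes of the lists were named as a direct relative, receptor or partner of a member, or as among the 3 highest or lowest of their list. Some genes that this rule names are not reported here. Libraries of one group differed by at least 9.41 times the counting error (chi-square per degree of freedom), so none repeated another. The hearts are separate mice, and p-values measure the spread between them. A floor of 3 counts per library covers counting error only. Sequences came from GENCODE M21 transcripts and RefSeq promoters (GRCm38.p6), with alignment in Biopython. Figures were drawn with matplotlib 3.10.9.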

Additional observations from a re-analysis of the deposited data

Results flagged for a closer look

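Day 1 heart 4 stood far from the other 3 hearts of its group for 2 members, by the gap to its nearest neighbour relative to the range of the group. Its *Acot1* level was 28.0 CPM, against 9.02 to 12.2 in the others, and its *Plin5* level was 131 CPM, against 92.2 to 95.9. Of the 24 sets of 4 hearts examined, these 2 were past the limit, and chance alone passes about 1 in 20 sets. Without this heart, the log2 FC of *Acot1* on day 1 was -2.11 in place of -1.62 (adjusted p = 2.19e-05), and 5 members in place of 3 were DEGs with lower levels.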

How the results depend on the processing

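The number of members with lower levels on day 7 was 5 in the fits with RLE factors, library totals, no filter, DESeq2, 2 groups alone or a replicate block, and 5 whichever heart was left out. The replicate block gave 3, 5 and 2 members lower in the 3 comparisons and changed no call. Of the 12 pairs of hearts with one number, 4 had deviations correlated above 0.1 (range -0.24 to 0.23). Those of number 3 were among them, at 0.12, 0.13 and 0.15. Pairs of hearts with different numbers ran over a like range, from -0.27 to 0.25. The labels name no pairing or batch, and whether hearts of one number were handled together was not tested.

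Scaled to cardiomyocyte markers, 1, 2 and 1 members were lower (day 1 and day 7 against sham, day 7 against day 1), 1, 0 and 0 were higher, and of the other targets 0, 0 and 1 were lower and 1, 1 and 1 higher. Of all genes, 0.516%, 0.444% and 1.21% were then lower and 25.7%, 51.7% and 15% higher. Without an FC minimum, 6, 6 and 5 members and 30, 32 and 28 other targets were lower, and 1, 1 and 2 other targets higher. In limma on log2(TPM + 1), with or without a minimum of 1 TPM in 4 libraries, 2, 4 and 0 members and 1, 4 and 2 other targets were lower, and with a pseudocount of 0.1 these were 2, 4 and 0, and 3, 5 and 2. Library totals gave 12 other targets lower on day 7. DESeq2 and the unfiltered fit each gave 1 other target higher on day 7 and 2 between the days. The causes of these shifts were not tested.

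With a heart left out, members lower ran from 3 to 5 on day 1 (5 without day 1 heart 4) and from 1 to 3 between the days. Between the days there was 1 without day 1 heart 1 or 2 or day 7 heart 2 or 4, each of which ended the call of *Angptl4*. Other targets lower ran from 2 to 8 between the days (6 without day 1 heart 1, 5 without day 1 heart 2, 8 without day 7 heart 3), and other targets higher from 0 to 1 on day 7 and between the days.

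Signs turned as follows, where the turns with cardiomyocyte scaling come with a shift of the median of all genes to 0.68, 1.04 and 0.34. *Cidea* on day 1 became 0.24 with library totals, 0.66 with cardiomyocyte scaling, 0.28 and 0.29 in limma with pseudocounts of 1 and 0.1, and ran from -0.086 to 0.016 with a heart left out, above 0 without sham heart 3 or day 1 heart 3. *Cidea* on day 7 became 0.41 with cardiomyocyte scaling. *Cpt1a* became 0.17 on day 1 with cardiomyocyte scaling, and on day 7 0.19 with library totals, 0.80 with cardiomyocyte scaling and 0.35 and 0.37 in limma. *Angptl4* on day 7 became 0.32 with cardiomyocyte scaling. Between the days, *Pdk4* became 0.011 with library totals and 0.16 with cardiomyocyte scaling, and ran from -0.40 to 0.078 with a heart left out, above 0 without day 1 heart 1 or day 7 heart 2. *Ucp3* became 0.042 with cardiomyocyte scaling. Library totals moved the median of all genes to 0.26, 0.43 and 0.15 in the 3 comparisons. In limma on log2(TPM + 1) that median was 0.23, 0.44 and 0.18. Depth limits *Fgf21*.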
